A study of Homo sapiens with 12 samples.

Results

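Regions gained without EP300 are stretches of the genome that carried an H3K27ac peak in both EP300-KO clones of the lymphoma line SUDHL4 and in neither control clone. The peaks of 6 lists were joined into merged regions wherever they shared a base, on chromosomes 1 to 22. Of the 47344 merged regions, 834 met this rule, which is 1.76% of all. The reverse rule, a peak in both control clones and in neither EP300-KO clone, was met by 4345 regions. The regions were chosen by the presence of peaks in the control and EP300-KO clones, so those values are given below as a description and without a test.

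SUDHL4 is a line of diffuse large B-cell lymphoma with the features of germinal-centre B cells. All lines were, per the labels, single clones made with CRISPR/Cas9, isolated by limiting dilution and grown under the same conditions. The 2 control clones (WT) were edited in the neutral gene PPP1R12C, and western blots showed that they express CREBBP and EP300. The 2 CREBBP-KO clones were made with guides against exons 15 and 20, and the 2 EP300-KO clones with guides against exons 17 and 24; loss of the protein was checked by western blot. Each genotype thus rests on 2 clones, and a trait of the founding cells cannot be told apart from the genotype. For 1 CREBBP-KO clone the exon number in the clone's name differs from the exon its protocol gives. Of the 12 samples 6 are immunoprecipitated libraries, each with a list of peaks, and 6 are their inputs.

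H3K27ac is the acetylated form of lysine 27 on histone H3 and marks active promoters and enhancers. EP300 and CREBBP are paralogous acetyltransferases that write this mark, are brought to enhancers by transcription factors and share many sites in B cells. Deacetylases remove the mark, and the peak lists record only where it stood above the input.

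The whole lists set the frame. The WT clones had 45483 and 39377 peaks on chromosomes 1 to 22, the EP300-KO clones 33969 and 34733, and the CREBBP-KO clones 34921 and 39763. In the 1 Mb windows that hold B-cell genes such as PAX5, MS4A1 (CD20), CD79A and CD79B all 6 clones had peaks. The gained regions come from the genotype with the shortest lists. Sequencing depth per library is unknown, and no interval given here covers it.

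Most gained regions were short and weak within their own lists. Median covered length, the number of bases of a region that lay in peaks, was 276 bases in the first EP300-KO clone (range 99 to 4077) and 205 in the second (99 to 3014). Of the 834 regions, 50.2% had a mean cover under 250 bases, against 8.995% of the 21244 regions with a peak in all 6 clones. At the upper end, 142 regions reached 500 bases, 42 reached 1000 and 8 reached 2000. The deposited score of a peak was ranked within its own list, since its meaning is not stated. The median gained region stood at percentile 27.9 of the first EP300-KO list and at 21.6 of the second. In both lists 52 regions stood in the upper 50%, and 34.5% of the regions stood in the lower 25% of both.

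Cover differed between the EP300-KO clones. The first clone had the longer cover in 577 regions and the second in 254. Across the 834 regions, Pearson's r of log2 cover between the 2 clones was 0.72 and Spearman's rho 0.625, as against 0.95 for each over the 21244 regions of all 6 clones. The points are regions of the same 2 libraries, and short peaks span a narrow range of lengths.

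**Figure D1:**
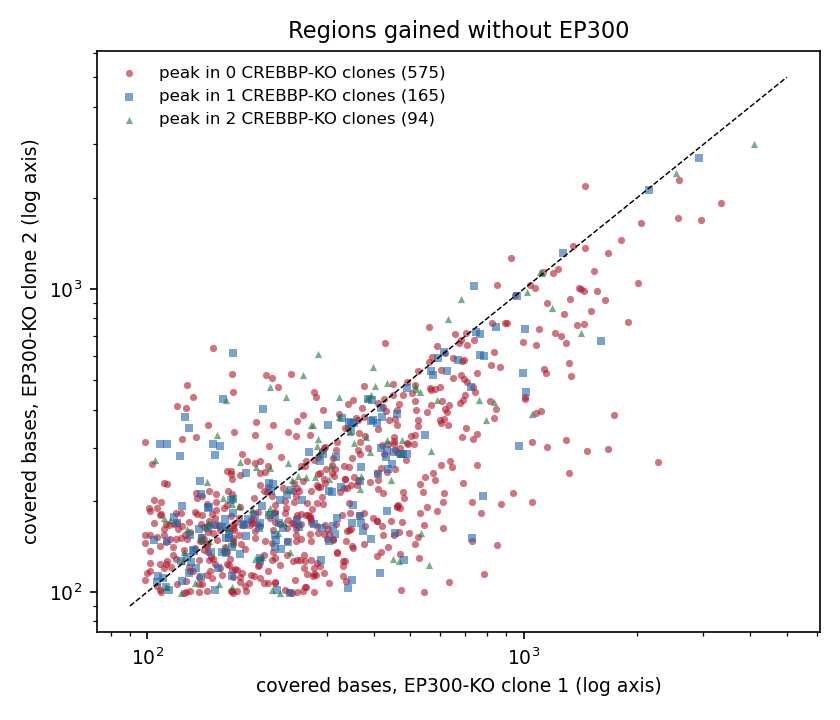
Covered bases of each of the 834 gained regions in the first (x axis) and second (y axis) EP300-KO clone, both on log axes; each point is 1 region, its colour and shape give the number of CREBBP-KO clones with a peak there, and the dashed line marks equal cover. Most points lie below the line, with 577 regions longer in the first clone, and the medians are 276 and 205 bases.

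The edge of the rule lies among equally weak peaks. The shortest gained region had a mean EP300-KO cover of 104.5 bases. Just outside the rule were 1367 regions with a peak in both EP300-KO clones and in 1 of the WT clones, 969 of them in the first and 398 in the second. The peak that kept such a region out had a median cover of 238 bases, at percentile 28.9 of its WT list, and the shortest had 99 bases. A peak in 1 WT list thus kept out more regions than the rule retained.

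The 10 longest gained regions, ranked by mean EP300-KO cover, were all without a base of peak in WT. The longest was on chromosome 3 at 149751144 to 149755220 (hg19), with 4077 and 3014 bases in EP300-KO and 1611 and 172 bases in CREBBP-KO. It stood at percentiles 95.1 and 91.6 of the EP300-KO lists, the highest mean percentile of all 834 regions. A region acetylated in all 6 clones lay 9573 bases away.

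The second longest was on chromosome 20 at 53711919 to 53714987, with 2921 and 2712 bases in the EP300-KO clones. The first CREBBP-KO clone had 2249 bases there and the second none, so the CREBBP-KO clones disagreed. Its nearest region of all 6 clones was 886351 bases away. Gained regions lay on either side of it, at 53710784 to 53711814 (960 and 946 bases in EP300-KO, 443 and 0 in CREBBP-KO) and at 53715221 to 53715601 (347 and 362 bases, 324 and 0). Both repeated its pattern, with peaks in the EP300-KO clones and in the first CREBBP-KO clone.

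The third was on chromosome 7 at 29327788 to 29331131, with 3344 and 1929 bases in the EP300-KO clones and no CREBBP-KO peak. The fourth, on chromosome 18 at 6254491 to 6257034, had 2531 and 2420 bases in EP300-KO and 1546 and 1101 bases in CREBBP-KO. All 4 knock-out clones therefore carried a peak at the fourth region, with both CREBBP-KO values below both EP300-KO values. The fifth, on chromosome 11 at 131066699 to 131069284, had 2586 and 2288 bases in the EP300-KO clones and none elsewhere. The nearest other region of any clone lay 179271 bases away.

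The sixth was on chromosome 16 at 48934283 to 48937234 (2952 and 1687 bases) and the seventh on chromosome 2 at 125071781 to 125074351 (2571 and 1718 bases), both with no CREBBP-KO peak. The eighth, on chromosome 12 at 12867300 to 12869455, had 2156 and 2124 bases in the EP300-KO clones and 546 in the first CREBBP-KO clone. A WT peak stood closer to it than to any of the other 9, so it bordered on sequence that was acetylated in a WT clone. The next and the last, on chromosome 2 at 107447275 to 107449436 (2053 and 1654 bases) and on chromosome 5 at 106848387 to 106850574 (1453 and 2188 bases), had no CREBBP-KO peak. Of these 10 regions, the first EP300-KO clone had the longer cover in all but the last.

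**Figure D2:**
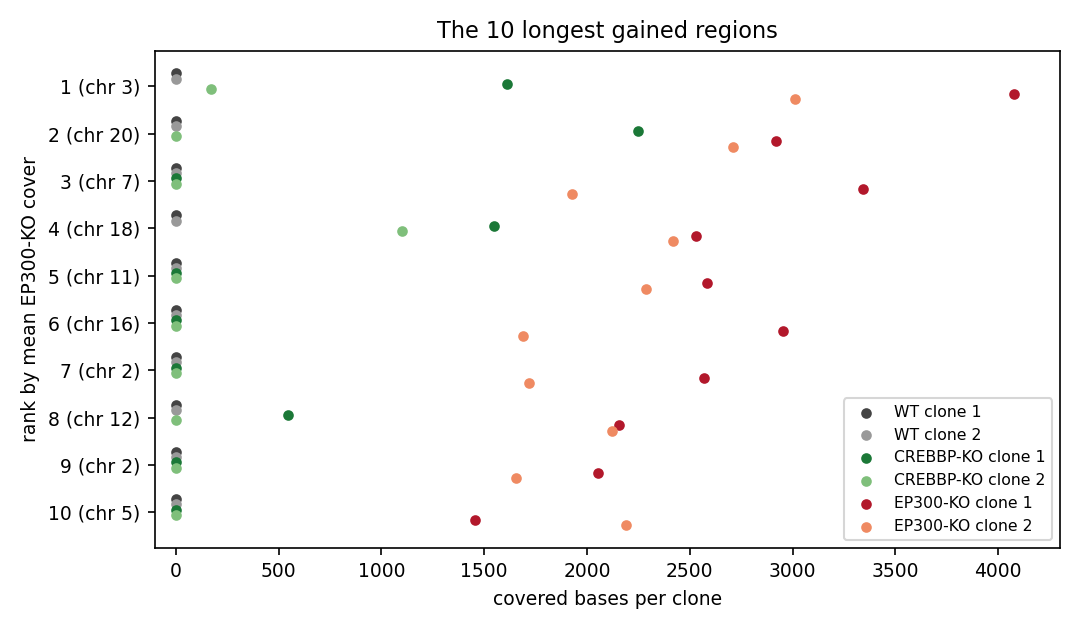
Covered bases (x axis) in each of the 6 clones for the 10 longest gained regions, ranked by their mean over the EP300-KO clones and marked by chromosome (y axis); each point is 1 clone. Both WT clones sit at 0 in every row by the rule of choice, the EP300-KO clones lie between 1453 and 4077 bases, and CREBBP-KO clones leave 0 in 4 rows, those of chromosomes 3, 20, 18 and 12.

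Some shorter regions with high scores or with CREBBP-KO peaks complete the set. On chromosome 2 at 42106679 to 42107851, the EP300-KO clones had 1119 and 1126 bases, at percentiles 85.8 and 82.6, and the CREBBP-KO clones had 404 and 155. On chromosome 16 at 53661793 to 53662933 the EP300-KO clones had 1105 and 1141 bases, against 920 and 224 in CREBBP-KO. On chromosome 15 at 70560550 to 70561959 the EP300-KO clones had 1270 and 1319 bases and, of the CREBBP-KO clones, the second alone had a peak (280 bases). In each of these 3 regions the EP300-KO clones differed less from each other than from any other clone.

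The CREBBP-KO clones took no part in the choice, except that the same WT clones had to lack a peak. Of the 834 regions, 575 (68.9%, Wilson 95% interval 65.7 to 71.99%) had a peak in 0 of the CREBBP-KO clones, 165 in 1 clone and 94 (11.3%, 9.3 to 13.6%) in both. The second CREBBP-KO clone had a peak in 25.8% of the regions and the first in 16.5%, in the order of their list lengths. These intervals cover counting error and treat regions as independent, which neighbours are not.

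Other sets of regions give the scale of this sharing. Among the 1865 regions absent from WT and present in 1 EP300-KO clone only, 80.1% had no CREBBP-KO peak and 3.81% had one in both CREBBP-KO clones. Of the 4345 regions lost in EP300-KO, 22% had no CREBBP-KO peak and 41.8% had one in both clones. The gained regions lay between these sets in how often CREBBP-KO clones carried them. The lost regions had to have a peak in both WT clones and the others in neither, so this order carries no separate weight. Regions gained in CREBBP-KO by the same rule numbered 587, and the 94 shared regions made up 16% of them. Both lists require absence from the same WT clones, so their overlap is no independent result. Where both CREBBP-KO clones had a peak, their cover lay below that of both EP300-KO clones in 27 of the 94 regions and above it in 15.

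Gained regions lay farther than the other sets given here from the acetylated sequence that all clones share. The median distance to the nearest region with a peak in all 6 clones was 30.6 kb for the 834 regions, 2.0 kb for the regions lost in EP300-KO and 1.85 kb for the regions gained in CREBBP-KO. Over 50 kb away were 348 gained regions (41.7%, Wilson 95% interval 38.4 to 45.1%), against 10.1% of the lost regions and 11.2% of those gained in CREBBP-KO. Within 1 kb were 21.2%, 40.7% and 40.9% in the same order. Distance was not part of the rule, except that a peak sharing a base with a region of all 6 clones was joined to it. Regions are not replicates, so these shares carry no test. Regions absent from WT and present in 1 EP300-KO clone only had a median of 15.6 kb, with 32% over 50 kb, and regions gained in CREBBP-KO without an EP300-KO peak one of 1.53 kb. Those just outside the rule, in both EP300-KO clones and 1 WT clone, had a median of 9252 bases, with 26.8% over 50 kb.

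**Figure D3:**
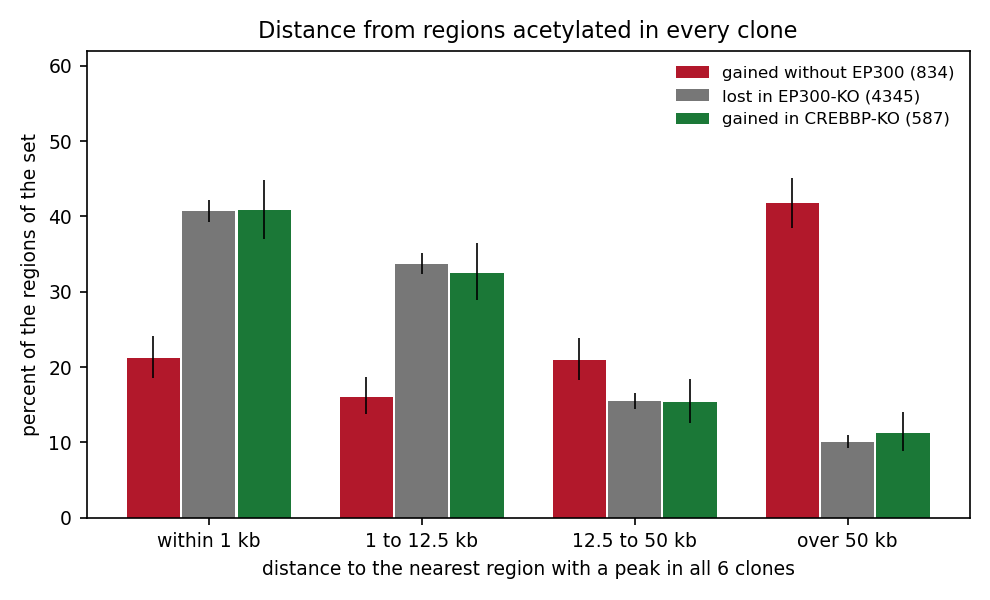
Percent of the regions of each set (y axis) by distance to the nearest region with a peak in all 6 clones (x axis, in kb); bars show regions gained without EP300, lost in EP300-KO and gained in CREBBP-KO, and error bars are Wilson 95% intervals for counting error. The gained regions have their largest class over 50 kb away (41.7%), while the other sets fall with distance from 40.7% and 40.9% within 1 kb.

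The distant gained regions were longer, scored higher and were less often shared with CREBBP-KO. A long peak close to a region of all 6 clones can reach it, and is then joined to it and not counted as gained. The rule therefore favours short gained regions near such sequence. How much of the order in length and score follows from this was not tested. Median EP300-KO cover was lowest within 1 kb of a region of all 6 clones, 206 and 253.5 bases in the nearer and the farther class between 1 and 50 kb, and 329.5 bases beyond 50 kb. In the upper 50% of both EP300-KO lists stood 2 of the 177 nearest regions and 39 of the 348 farthest. A peak in at least 1 CREBBP-KO clone was present at 52.5% of the regions within 1 kb, 44.8% and 26.9% in the classes between, and 17% beyond 50 kb. Regions without a CREBBP-KO peak lay at a median of 51.5 kb, and those with a peak in both CREBBP-KO clones at 7.75 kb. No other merged region of any clone lay within 10 kb of 23.6% of the gained regions, as against 12.95% of all regions and 5.87% of the lost ones.

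Many gained regions had another beside them. With gaps of up to 10 kb, 232 of the 834 regions formed groups of 2 or more and 602 stood alone. In 88 of the groups the whole span held no base of a WT peak. The groups named here were chosen after their values were seen. A group of 4 on chromosome 5 at 154589837 to 154594471 had 4135 and 3384 member bases in the EP300-KO clones, none in the other 4 clones, and lay 268 kb from the nearest region of all 6 clones. A group of 4 on chromosome 18 at 44735792 to 44754730 had 4260 and 2041 bases in EP300-KO and no peak in the other 4 clones. The EP300-KO clones were closer to each other at the first of these groups than at the second.

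The genome was also divided into windows of 1 Mb. Of 2282 windows that held any region, 24.3% had at least 1 gained region, and 26 had 4 or more. The window with most was on chromosome 21 from 37 to 38 Mb, with 6 of 25 regions gained and none lost. Its gained regions covered 2531 and 1250 bases in the EP300-KO clones. On chromosome 20 from 53 to 54 Mb all 5 regions were gained, with 4887 and 4643 bases in EP300-KO and 3421 and 0 in CREBBP-KO. On chromosome 2, a window that includes the seventh-longest region had 5 of 7 regions gained (5238 and 3649 bases in EP300-KO), and no WT peak at all. On chromosome 10 from 50 to 51 Mb 5 of 14 regions were gained (1960 and 1504 bases) and from 73 to 74 Mb 5 of 39 (2464 and 1894 bases).

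Germinal-centre B cells move between a dark zone, where FOXO1 and CXCR4 act, and a light zone, where CD40 and antigen signals lead towards plasma cells. No hg19 annotation was used here, so a gene gives its name to the 1 Mb window it lies in, by general knowledge of its position. A gained region in such a window need not lie at the gene, and the window holds other genes too. Of 85 named windows, 29 held a gained region, which is 34.1% against 24.3% of all windows with any region. Gained regions made up 1.31% of the regions in them, against 1.76% overall.

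No gained region fell in the dark zone windows of FOXO1, a transcription factor, or CXCR4, a chemokine receptor. These held 157 regions. Windows of B-lineage genes held 3 gained among 606 regions (0.495%), both CD79 chains, CD22 and PAX5 having none. MS4A1, which encodes CD20, had 2 of 39, with 693 and 503 bases and 336 and 237 bases in the EP300-KO clones and no other clone. Windows of the light zone and of CD40 and NF-kB genes held 3 of 404 (0.743%), and those of plasma cell genes 3 of 266 (1.13%). Windows of AP-1 and interferon genes held none of 135 regions.

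Germinal-centre windows held 13 of 729 regions (1.78%), close to the share over all regions. Windows with 2 included those of EZH2, a histone methyltransferase, MEF2B and SPIB, both transcription factors, and S1PR2, a receptor that confines cells to the germinal centre. In the S1PR2 window the regions had 842 and 752 bases and 478 and 285 bases in the EP300-KO clones, and 440 and 270 bases in the first CREBBP-KO clone only. The 3 MHC class II windows held 4 gained among 116 regions (3.45%). In that of CIITA, the coactivator of MHC class II genes, 2 neighbouring regions had 795 and 371 bases and 355 and 310 bases in the EP300-KO clones. Both CREBBP-KO clones had peaks at each of them, of up to 243 bases. The BCL2L11 window, named for a promoter of apoptosis, had 2 of 36. Those of the edited genes CREBBP, EP300 and PPP1R12C had 1 of 53, 0 of 53 and 1 of 49, beside 1.76% of all regions.

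Windows named for genes of other lineages held 12 gained among 478 regions (2.51%), 9 of them in 2 windows. That of TCF7, a T-cell transcription factor, had 5 of 53, with 2157 and 1754 bases in the EP300-KO clones and 165 bases in 1 CREBBP-KO clone. The cover of the whole TCF7 window was 36.7 and 37.9 kb in WT and 40.8 and 37.2 kb in EP300-KO, so the genotypes overlapped. That of ID2, an inhibitor of E proteins, had 4 of 29 gained. At 8819220 to 8819520 and 8822249 to 8822515 on chromosome 2 the EP300-KO clones had 301 and 150 bases and 193 and 267 bases, with no peak in the other clones. At the other 2 gained regions, 8621043 to 8621532 (386 and 435 bases) and 8622242 to 8623033 (569 and 537 bases), the second CREBBP-KO clone had 216 and 169 bases. The windows of CD2, CEBPA and GATA2 had 1 each, of 11, 14 and 29 regions. The other windows of this list, among them CD3E, CD14, LYZ, LEF1, BCL11B and TAL1, had none.

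The sequence beside the gained regions was not itself used to choose them, and it was tested. It is not independent of the choice, since it begins at the region's own edge. The nearest other merged region of any clone lay at a median of 306 bases. The tests below are therefore no independent support for the gain. Flank cover was the number of bases in peaks within 10 kb on each side of a region, leaving out the region and every gained region. Around the 834 regions it averaged 714 and 676 bases in WT, 665 and 802 in CREBBP-KO and 871 and 773 in EP300-KO. Both EP300-KO clones lay above both WT clones, 822 ± 69.5 against 695 ± 26.6 bases (mean ± SD, n = 2 each, exact two-sided permutation p = 0.333, the smallest that 2 clones against 2 allow). This ratio of 1.18 was 1.27 with flanks of 5 kb and 1.01 with flanks of 50 kb. Around all 47344 regions the order was the opposite, with 1646 ± 36.4 bases in EP300-KO and 2233 ± 85.3 in WT. Flank cover of gained regions was thus 31.1% of that of all regions in each WT clone, 33.9% and 32.4% in CREBBP-KO, and 53.8% and 46.2% in EP300-KO.

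**Figure D4:**
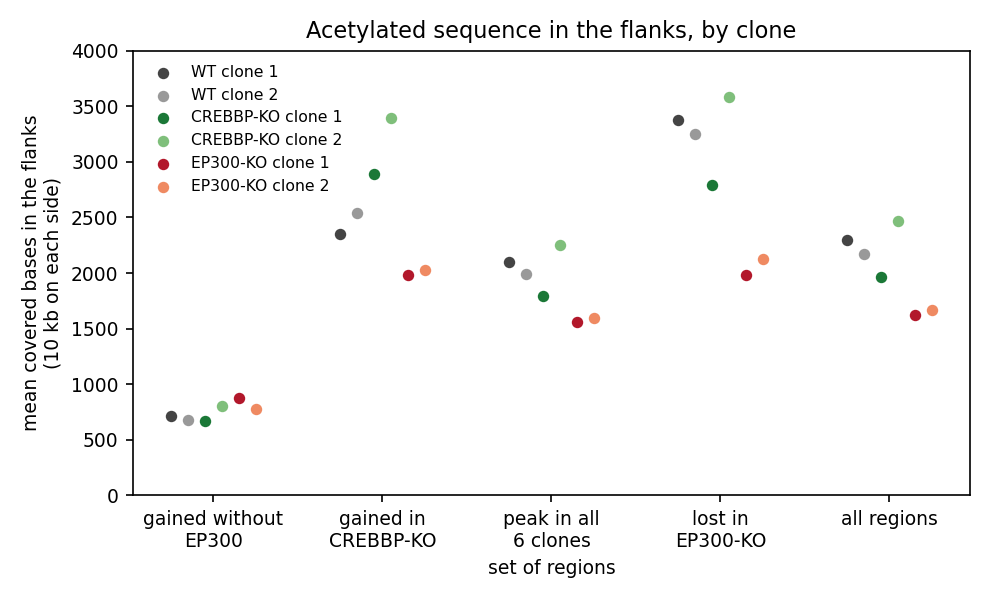
Mean covered bases in the 10 kb on each side of a region (y axis) for 5 sets of regions (x axis), without the region itself and without gained regions; each point is 1 clone. EP300-KO clones lie above both WT clones only around the regions gained without EP300 (871 and 773 against 714 and 676 bases) and below both WT clones in the other 4 sets.

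Single flanks were then compared in limma over all regions with at least 500 flank bases in at least 2 clones. Of the 834 gained regions 306 entered, 9 of them through the EP300-KO clones alone, and 308 had no flank peak in any clone. In EP300-KO against WT, flank cover was higher at 22 of the 306 (7.19%), at 17 separate sites, and lower at 1, at a Benjamini-Hochberg adjusted p of 0.05. Without the 9 that entered through the EP300-KO clones alone, which had to differ, it was higher at 20 of 297 (6.73%) and lower at 1. Over all 32075 regions tested, 0.798% were higher and 5.13% lower. The median log2 difference was 0.54 for the gained regions and 0.09 for all. These values are relative to each clone's median; without that centring they were 0.13 and -0.32. The estimate was positive at 278 of the 306 (90.8%) and at 57.6% of all regions, and without centring at 195 of the 306 (63.7%) and 16.4% of all. Without the 9, the centred estimate was positive at 269 of 297, with a median of 0.53. Neighbouring gained regions can have the same flank cover, so these counts are not of separate flanks.

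The count of 22 depended on single clones. It was 2 when the first EP300-KO clone was left out, 5 for the second, 7 for the first or the second CREBBP-KO clone, and 6 without centring. In CREBBP-KO against WT, limma called 0 of the 306 in either direction (49 at an unadjusted p under 0.05, 16% against 10.9% of all regions), beside 0.0374% of all regions higher and 0.218% lower, and the median log2 difference was 0.08 against 0.02 for all. In EP300-KO against CREBBP-KO, 26 of the 306 were higher and 0 lower in limma, beside 2.17% and 6.4% of all regions. Without the 9 that entered through EP300-KO alone, 19 were higher. The count of 26 fell to 2 and 4 without the first or the second EP300-KO clone, to 4 and 8 without the first or the second CREBBP-KO clone, and to 10 without centring. Of these fits, that without the second EP300-KO clone and that without the first CREBBP-KO clone had 1 lower.

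The largest flank difference was on chromosome 11 around 23768855 to 23769202. Its flanks held 904 and 945 bases in the EP300-KO clones, 0 and 157 in WT and 0 in each CREBBP-KO clone. This flank passed the filter through the EP300-KO clones alone, so its values are a description and no test is given. On chromosome 5 around 94557299 to 94557552 the flanks held 1979 and 1791 bases in EP300-KO, 1233 and 1633 in CREBBP-KO and 193 and 401 in WT (2.78, SE 0.30, limma adjusted p = 0.014). Here all 4 knock-out clones lay above WT, and the call ended without the first EP300-KO clone (0.063) and without the first or the second CREBBP-KO clone (0.054 and 0.051). On chromosome 10 around 72076117 to 72076285 they held 2390 and 2137 bases in EP300-KO, 911 and 937 in CREBBP-KO and 732 and 391 in WT (2.29, SE 0.26, limma adjusted p = 0.017), a call that ended without the first EP300-KO clone (0.072) and with flanks of 5 or 50 kb (0.13 and 0.069). At 16 of the 22 called flanks both CREBBP-KO clones also lay above both WT clones. The 22 were called against these same WT clones and the bases are not centred, so this count is no separate result.

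**Figure D5:**
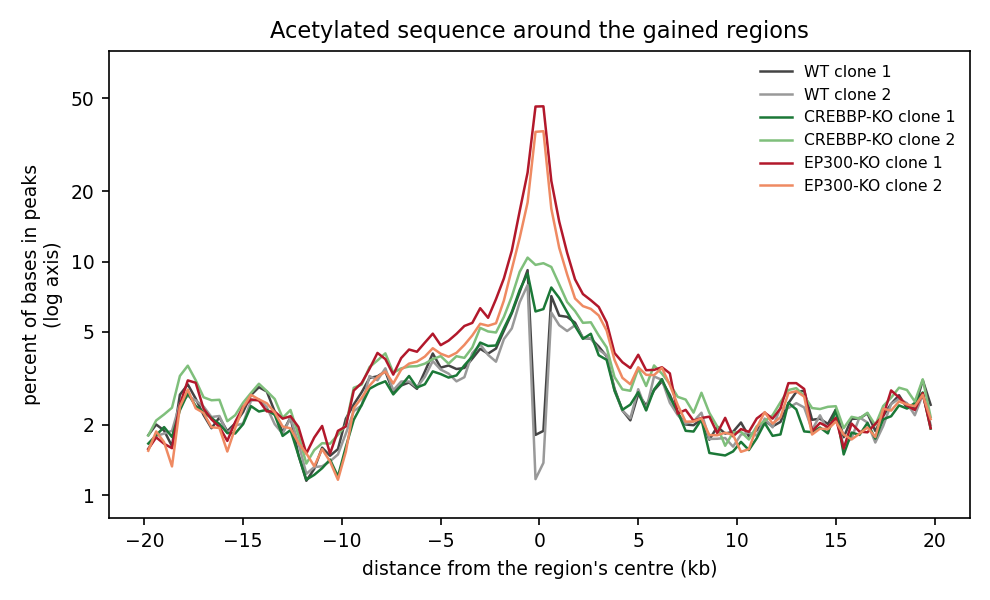
Percent of bases in peaks (y axis, log) in bins of 400 bases, by distance from the centre of the 834 gained regions (x axis, kb), 1 line per clone; gained regions are not left out here. At the centre the EP300-KO clones reach 46.3% and 36.2% and WT stays under 2% by the rule of choice (bins reach past the shorter regions), while beyond about 10 kb the 6 lines run together.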

How the data were processed

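The deposited files are 1 list of H3K27ac peaks per clone, each called against that clone's own input per the file headers. Which program called the peaks is not stated in the labels or headers. Tools in the submitters' processing notes are CASAVA 1.8, Bowtie2 2.1.0 and SAMtools 0.1.19, with build hg19. The deposited score per peak (14 to 170) has no stated meaning and served for ranks inside 1 list only. No reads, depths or signal were used, and a region without a peak can still carry the mark below the caller's threshold. The smallest gap between peaks was 101 bases in each list, so neighbouring peaks had been joined before deposit. Starts were read as counted from 0, which leaves an uncertainty of 1 base.

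Flank cover was tested in limma 3.58.1 under R 4.3.3, as log2 of covered bases plus a pseudocount of 100, less each clone's median over flanks covered in all 6 clones, with 1 spread shared by 6 clones, and the procedure was tested on simulated data. The pseudocount makes changes of short flanks look smaller than they are. Named were the 10 longest regions, the 5 with the highest mean score percentile, the 3 longest for each number of CREBBP-KO clones, the 5 windows with most gained regions, gene windows with at least 2, and the 3 largest flank differences past the threshold. Some named windows are not reported here. All 85 window genes were on the stated chromosome in the gene table (GRCh38), which served for nothing else. Regions, lists and tests were chosen with earlier results of these data known. No sequence is printed, since no genome of this build was used here. The inputs entered only through the lists. Clones came from separate single cells, with 1 immunoprecipitated library each, and the 2 clones of a knock-out had different guides. The spread behind the p-values therefore cannot separate clone, guide and library.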

Additional observations from a re-analysis of the deposited data

Results flagged for a closer look

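Chromosome X, which the choice of regions leaves out, held 15 regions with a peak in both EP300-KO clones and in neither WT clone, of 1395 merged regions (1.08%). Their median EP300-KO cover was 166 bases.

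The flanks of 26 gained regions held more acetylated sequence in EP300-KO than in CREBBP-KO in limma's direct test, beside 2.17% of all 32075 regions, and none held less. That count was 2 or 4 without 1 of the EP300-KO clones and 4 or 8 without 1 of the CREBBP-KO clones, with 1 flank holding less in 2 of these 4 fits. It was 10 without centring, and 19 without flanks that entered the test through EP300-KO alone (added after seeing the data). Of the 22 flanks higher than in WT, 6 were also higher than in CREBBP-KO. These 6 include the 2 of the 22 that entered the test through EP300-KO alone and had to differ.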

How the results depend on the processing

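The number of gained regions follows the peak lists. With peaks within 500 bases joined it was 512, with the upper 75% of each list by score 548 (282 of them among the 834), and with the upper 50% of the EP300-KO lists 52. With lists of equal length (35054 peaks) it was 1459, which held 801 of the 834, and the lost regions then numbered 2221. With 1 WT or EP300-KO clone left out it ran from 1232 to 2085, more than 834 because fewer clones must meet the rule. Joining peaks within 100 bases, asking for 100 covered bases, adding the sex chromosomes and reading starts as counted from 1 (added after seeing the data) kept it between 817 and 850. The share with a CREBBP-KO peak, 31.1%, was 26.2% with peaks within 500 bases joined, 37.8% at equal length, 36.7% in the upper 75%, and 16.5 to 48.6% with 1 clone left out. The share over 50 kb from regions of all 6 clones was 35.2% at equal length. Gained regions with a higher flank numbered 54 with flanks of 50 kb, 73 with a pseudocount of 1000, 6 without centring, 10 without the filter, 96 with gained regions kept in the flank, 9 with the WT and EP300-KO clones alone and 2 to 22 with 1 clone left out. Leaving out the first or the second CREBBP-KO clone cannot raise the share with a CREBBP-KO peak, which was then 25.8 and 16.5%. The cause of the other shifts was not tested. The ratio of mean flank cover, EP300-KO to WT, was 1.18, and 1.01 with flanks of 50 kb, 1.44 with gained regions kept and 1.13 with all regions absent from WT left out (added after seeing the data). The median flank difference stayed above that of all regions in each of these fits. No paired analysis was possible because the clones of the 3 genotypes carry no shared number, day or origin in the labels.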

Other observations

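Gained regions were spread over all 22 autosomes but not in equal shares. They made up 3.6% of the regions of chromosome 21 (20 of 555), 2.46% on chromosome 18 and 2.41% on chromosome 5, as against 1.06% on chromosome 9 and 1.24% on chromosome 22. The share lost in EP300-KO was 9.37% on chromosome 21 and 9.82% on chromosome 9. Over all autosomes the lost share also varied, from 7.09% on chromosome 17 to 11.3% on chromosome 5. These shares carry no test.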
